A study of Mus musculus with 20 samples.

Results

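The genes described here are 48 mouse genes whose products repair or signal the DNA damage that platinum drugs cause. They were listed by symbol and sorted by role into 7 pathways: 11 Fanconi anemia genes, 11 homologous recombination genes, 4 crosslink nuclease genes, 9 nucleotide excision repair genes, 6 translesion synthesis genes, 2 mismatch repair genes and 5 checkpoint genes. The list holds 48 of the 35226 genes in the count table, and all 48 passed the filter on low counts that left 16665 genes for testing. Messenger RNA was sequenced from 20 subcutaneous LLC1 tumors, 1 library per tumor. LLC1 is a Lewis lung carcinoma cell line grown here in syngeneic C57BL/6J mice, which were males of 8 to 10 weeks at the start. Treatments were vehicle, cisplatin, KW6002, and cisplatin with KW6002 (cotreatment), with 5 tumors in each of the 4 groups. KW6002 is istradefylline, a drug that blocks an adenosine receptor, and the labels give no doses or times. No genotype differed between the groups, all tumors came from a single cell line, and each library holds RNA of the tumor cells together with that of the host's stroma and immune cells.

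Cisplatin binds purine bases and joins neighboring bases of 1 strand, or bases of both strands, into adducts that stop polymerases. Adducts within a strand are cut out by nucleotide excision repair or copied past by translesion polymerases, whereas crosslinks between strands are recognized by the Fanconi anemia proteins, unhooked by nucleases and completed by homologous recombination. Mismatch repair proteins bind platinated DNA, and the kinases ATM, ATR and their partners halt the cell cycle while repair proceeds. Many homologous recombination and Fanconi anemia genes are known to be transcribed mainly in S phase, from promoters that bind E2F factors.

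The groups were checked first on genes outside the list. Each tumor gave 28.4 to 41 M counts. Cdkn1a, a p53 target, stood between 260 and 393 CPM (counts per M) in vehicle tumors, between 461 and 581 CPM after cisplatin and between 478 and 622 CPM after cotreatment. Of 6 genes listed as carcinoma markers, 5 were in the count table, and whether they mark tumor cells alone was not tested. Epcam and Sftpc did not pass the filter, while Krt8, Krt18 and Vim did. Of these 3, Krt8 was called higher in both cisplatin arms, at 0.53 ± 0.0848 and 0.57 ± 0.0848 on the log2 scale (edgeR adjusted p = 0.000288 and 3.12e-05), and the others were not called. Of the 3 red blood cell markers, 3 were lower in both arms (4.57% of all genes were lower after cisplatin and 10.4% after cotreatment), with summed levels of 20.5 to 93.4 CPM in vehicle tumors, 0 to 0.0613 CPM after cisplatin and 0.0276 to 0.0936 CPM after cotreatment. Of the 4 endothelial markers, 4 were lower in both cisplatin arms beside the same shares, with summed levels of 118 to 179 CPM in vehicle tumors, 56.5 to 78.6 CPM after cisplatin and 59.6 to 90.9 CPM after cotreatment. Summed neutrophil markers stood between 41.5 and 114 CPM in vehicle tumors, between 12.9 and 63.9 CPM after cisplatin and between 12.7 and 29.9 CPM after cotreatment. Summed macrophage markers stood between 1950 and 2982 CPM in vehicle tumors. They stood between 2774 and 3548 CPM after cisplatin and between 2200 and 3268 CPM after cotreatment. Of the 7 macrophage markers, 0 were called higher in either arm, beside 6.01% of all genes after cisplatin and 13.1% after cotreatment. Summed skeletal muscle markers had medians of 2.07, 118 and 12.0 CPM in these groups, with highest tumors at 48.1, 219.7 and 932 CPM. Of the 4 muscle markers, 0 were called, beside 10.6% of all genes after cisplatin and 23.5% after cotreatment. In bulk tumors, fewer cells of a type and less RNA per cell cannot be told apart, and the part of cell makeup in the values below was not tested. The library codes in the labels fall into an earlier and a later run of numbers, which hold 1 and 4 vehicle tumors, 2 and 3 KW6002 tumors, 2 and 3 cisplatin tumors, and 3 and 2 cotreated tumors.

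Promoters are shown for 7 of the 8 genes that were called after cotreatment, all but Exo1, because their letters can be read beside the values below. RefSeq promoters on GRCm38.p6, from 250 bases before to 50 bases after a start site, were found for 41 of the 48 genes, with 45 entries. RefSeq starts can differ from the gene ends given below. Capitals mark the core letters of an E2F element, read on both strands, either as TTCCCGC, or else as TTCGCGC, or in the forms TTGCCGC and also TTGGCGC; the letters searched were chosen with results of these data known. The genes that were lower after cotreatment come first, then Ercc1 and Xpa, which were higher.
Chek1, chr9:36726609-36726908, minus strand: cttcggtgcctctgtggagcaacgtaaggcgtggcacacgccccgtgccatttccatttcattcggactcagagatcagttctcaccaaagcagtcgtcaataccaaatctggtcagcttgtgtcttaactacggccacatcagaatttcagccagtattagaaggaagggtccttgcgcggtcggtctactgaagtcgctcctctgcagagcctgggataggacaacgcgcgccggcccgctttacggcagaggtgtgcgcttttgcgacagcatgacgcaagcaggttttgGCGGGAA
Fanci, chr7:79392088-79392387, plus strand: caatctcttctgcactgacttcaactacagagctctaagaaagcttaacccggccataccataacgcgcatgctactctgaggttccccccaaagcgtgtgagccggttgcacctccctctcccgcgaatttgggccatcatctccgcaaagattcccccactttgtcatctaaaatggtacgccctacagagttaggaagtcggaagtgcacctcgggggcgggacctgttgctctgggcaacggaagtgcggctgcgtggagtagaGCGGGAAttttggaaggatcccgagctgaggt
Rad51c, chr11:87404905-87405204, minus strand: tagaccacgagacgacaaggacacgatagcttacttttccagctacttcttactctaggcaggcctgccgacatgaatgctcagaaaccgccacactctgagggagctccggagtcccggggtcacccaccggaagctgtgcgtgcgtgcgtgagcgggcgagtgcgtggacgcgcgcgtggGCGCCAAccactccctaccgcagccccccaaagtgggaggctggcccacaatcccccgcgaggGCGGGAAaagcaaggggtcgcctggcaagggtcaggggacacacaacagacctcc
Rad54l, chr4:116123640-116123939, minus strand: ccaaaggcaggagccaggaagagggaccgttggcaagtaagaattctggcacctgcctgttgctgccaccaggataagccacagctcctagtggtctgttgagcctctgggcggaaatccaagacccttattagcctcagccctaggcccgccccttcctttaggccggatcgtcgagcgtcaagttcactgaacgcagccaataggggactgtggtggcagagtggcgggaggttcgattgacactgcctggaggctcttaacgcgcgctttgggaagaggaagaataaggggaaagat
Atm, chr9:53536622-53536921, minus strand: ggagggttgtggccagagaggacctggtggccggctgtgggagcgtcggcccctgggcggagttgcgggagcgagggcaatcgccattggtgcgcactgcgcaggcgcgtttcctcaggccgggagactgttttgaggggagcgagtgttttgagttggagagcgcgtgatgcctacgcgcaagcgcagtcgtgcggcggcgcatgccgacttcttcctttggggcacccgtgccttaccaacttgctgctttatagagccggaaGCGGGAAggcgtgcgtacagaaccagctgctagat
Ercc1, chr7:19344821-19345120, plus strand: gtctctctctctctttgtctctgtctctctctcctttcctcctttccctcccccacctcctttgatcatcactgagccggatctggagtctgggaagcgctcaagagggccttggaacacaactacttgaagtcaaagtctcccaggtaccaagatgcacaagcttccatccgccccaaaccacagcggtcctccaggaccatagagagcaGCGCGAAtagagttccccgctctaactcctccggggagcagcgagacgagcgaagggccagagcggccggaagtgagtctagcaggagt
Xpa, chr4:46196262-46196561, minus strand: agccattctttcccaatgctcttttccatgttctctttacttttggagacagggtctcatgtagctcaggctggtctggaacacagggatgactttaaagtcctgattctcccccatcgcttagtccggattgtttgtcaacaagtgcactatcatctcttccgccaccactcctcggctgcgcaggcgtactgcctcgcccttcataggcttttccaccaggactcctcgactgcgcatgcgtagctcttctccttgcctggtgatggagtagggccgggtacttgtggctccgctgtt

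Counting the first base of the transcript as 1, the E2F letters started at 44 in Chek1, 19 in Fanci and 16 in Atm, as GCGGGAA each time. Rad51c held GCGCCAA at -68 and GCGGGAA at -5 at the start shown. The other Rad51c start, not shown, held TTCGCGC from position 13. Ercc1 held GCGCGAA at -39. Neither Xpa nor the 2 Rad54l entries, whose starts lie 1 base apart (1 is shown), held the letters. Over all repair genes on the list, 20 of 45 promoter entries held them (44.4%), compared with 9.57% of 32851 promoters and with 15.5% of the 14543 promoters of tested genes. The CCAAT box, CCAAT on either strand, was found in 55.6% of the list's promoters and 37.5% of those of tested genes. The CHR element, TTTGAA or TTCGAA on either strand, was found in 2 of 45 (4.44%), compared with 14.4% of the promoters of tested genes. With a further T in front, the E2F letters were found in 13.3% and 3.6%. A p53 element was read without mismatch as RRRCWWGYYY, repeated after at most 13 bases. Here R is A or G, W is A or T, and Y is C or T. It was found in 0 of 45, compared with 0.0756% of the promoters of tested genes. At so low a share, 45 entries are too few to show a difference. A match is a description of the letters in this window and was not tested against the measured values.

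In vehicle tumors the 48 genes spanned a wide range of levels. Per kb of exon, the median gene stood at 4.73 CPM, 41 of 48 lay between 2 and 20 CPM, and 4 lay above that. The DNA damage-binding protein gene Ddb1, which also serves a ubiquitin ligase, was highest at 285 ± 16.8 CPM per kb (SD, n = 5). It was followed by Rad23b, a partner of the lesion sensor XPC, at 84.6 ± 6.61 CPM per kb, and by Msh6, a mismatch sensor. Ercc3, a helicase of TFIIH, stood at 29.9 ± 1.28 CPM per kb. The lowest were Rad51c at 1.34 ± 0.123 CPM per kb, Fancc of the Fanconi core complex at 1.37 ± 0.0887 CPM per kb and the nuclease gene Fan1 at 1.48 ± 0.0887 CPM per kb. Rad51c and Fancc differed by less than the SD of either. The lowest count of any listed gene in any tumor was 93 reads, for Rad51c.

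**Figure D1:**
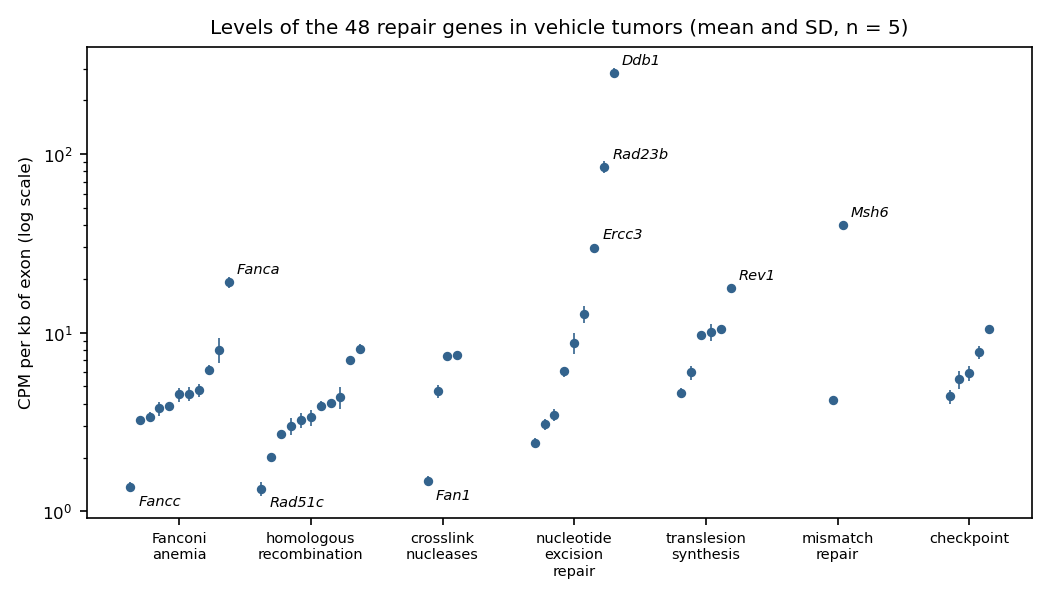
Level of each of the 48 repair genes in vehicle tumors, in CPM per kb of exon on a log axis, by pathway; points are means and bars are SD (n = 5). Ddb1 stands highest at 285 CPM per kb and Rad51c lowest at 1.34 CPM per kb.

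The first question was whether KW6002 alone changed repair genes. A call required an edgeR adjusted p under 0.05 together with a log2 fold change of 0.32 or more in either direction, the limits the study used for its tumors. KW6002 against vehicle called 0 of the 48 genes, against 0% of all genes tested, and 0 of the 48 had an unadjusted p under 0.05 by edgeR (2.03% of all genes did). DESeq2 also called 0. Groups did not overlap for 0 of 48 genes (0.342% of all genes). The log2 fold changes ran from -0.25 for Rad51c to 0.15 for Fancf, a core complex adaptor. The 95% intervals of all 48 lay inside a fold of 1.5 in either direction, as did those of 73.3% of all genes. Intervals widen where reads are few. A rule of at least 10 counts in every tumor kept all 48 listed genes but only 14048 genes of the table. Shares inside this band, here and below, therefore do not compare genes at equal read counts.

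The second question was what cisplatin did, without and with KW6002. The vehicle tumors are shared by both comparisons. Cisplatin called 3 of 48 genes (6.25%; 10.6% of all genes): Ercc1 was higher (higher calls made up 6.01% of all genes), and Rad51c and Atm were lower (lower calls made up 4.57%). Cotreatment called 8 of 48 (16.7%; 23.5% of all genes). Ercc1 and Xpa were higher, and Fanci, Rad51c, Rad54l, Exo1, Atm and Chek1 were lower; 13.1% of all genes were higher and 10.4% lower. Both shares called were below those of all genes in the same fit. After cotreatment the order turned in 3 of the fits without 1 tumor: 13 of 48 genes were called without vehicle replicate 1 (27.1%; 21.9% of all genes), and 12 of 48 without cotreated replicate 4 or 5 (25%; 24.2% and 22.5% of all genes). It also turned within the later library codes after cotreatment (14.6%, beside 12.8% of all genes). With no filter on low counts it turned in both arms, at 6.25% after cisplatin and 14.6% after cotreatment. The shares of all genes were then 4.17% and 10.5%, where more genes enter the total. Of the list, 1 gene makes up 2.08%. The gaps without cotreated replicate 4 and within the later codes were smaller than that. Groups did not overlap with vehicle for 6 of 48 genes after cisplatin (12.5%, beside 10.4% of all genes), a gap of about 1 listed gene. After cotreatment they did not overlap for 15 of 48 (31.2%, beside 24.7% of all genes). Neither gap was tested. The median log2 fold change of the list was -0.02 after cisplatin and -0.06 after cotreatment, beside 0.0004 and -0.02 over all genes. Its median absolute log2 fold change was 0.11 after cisplatin and 0.20 after cotreatment, beside 0.16 and 0.22 over all genes. After cisplatin the 95% intervals of 45 of 48 genes lay inside a fold of 1.5, compared with 64.1% of all genes, and the exceptions were Rad51c, Ercc1 and Atm. After cotreatment 41 of 48 did (85.4%, beside 58.2% of all genes), and the exceptions were Rad51c, Rad54l, Exo1, Ercc1, Xpa, Atm and Chek1. Neither share was compared at equal read counts.

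Shares were also counted on the adjusted p alone, with no fold limit. Cisplatin then passed 9 of 48 genes (18.8%; 16.5% of all genes), cotreatment passed 20 of 48 (41.7%; 35.4%), and cotreatment against cisplatin passed 5 of 48 (10.4%; 6.52%). Under this rule 4 genes were higher and 5 lower after cisplatin, and 8 were higher and 12 lower after cotreatment. Of the 20 listed genes that passed after cotreatment, 12 stayed within the fold limit, and of the 5906 genes that passed in the whole table, 3914 exceeded it.

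**Figure D2:**
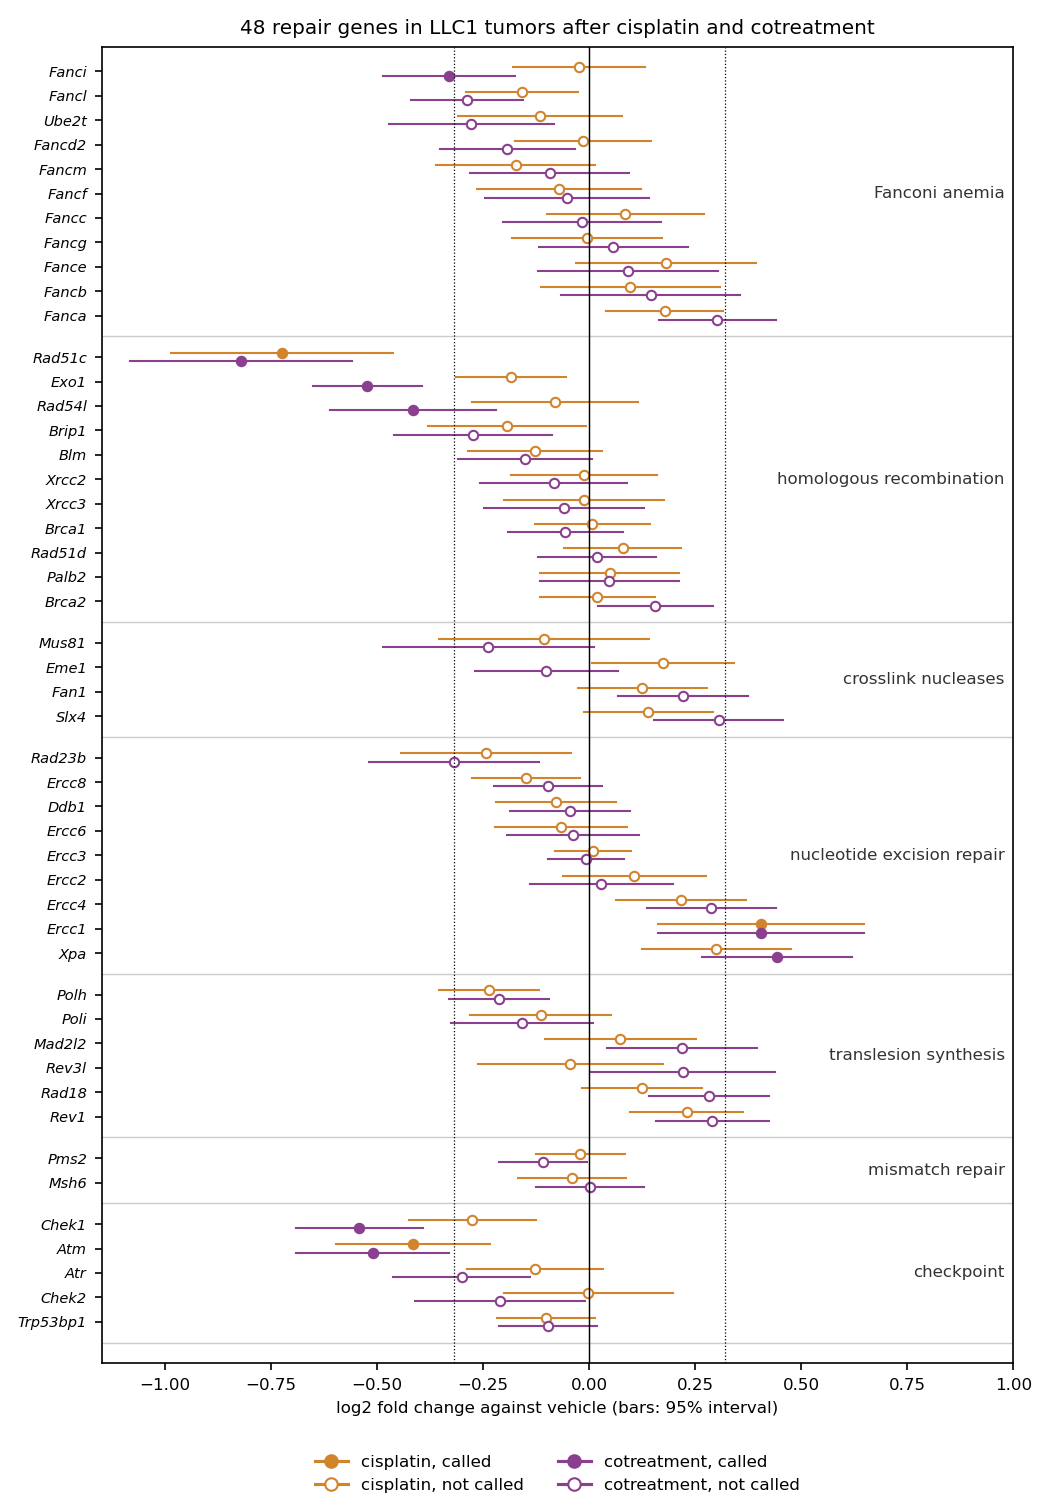
Log2 fold change against vehicle of the 48 repair genes after cisplatin (orange) and cotreatment (purple), by pathway, with 95% intervals; filled points were called and dotted lines mark the fold limit of 0.32 on the log2 scale. The checkpoint genes lie left of 0 after cotreatment, and Rad51c lies farthest left at -0.73 and -0.82.

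**Figure D3:**
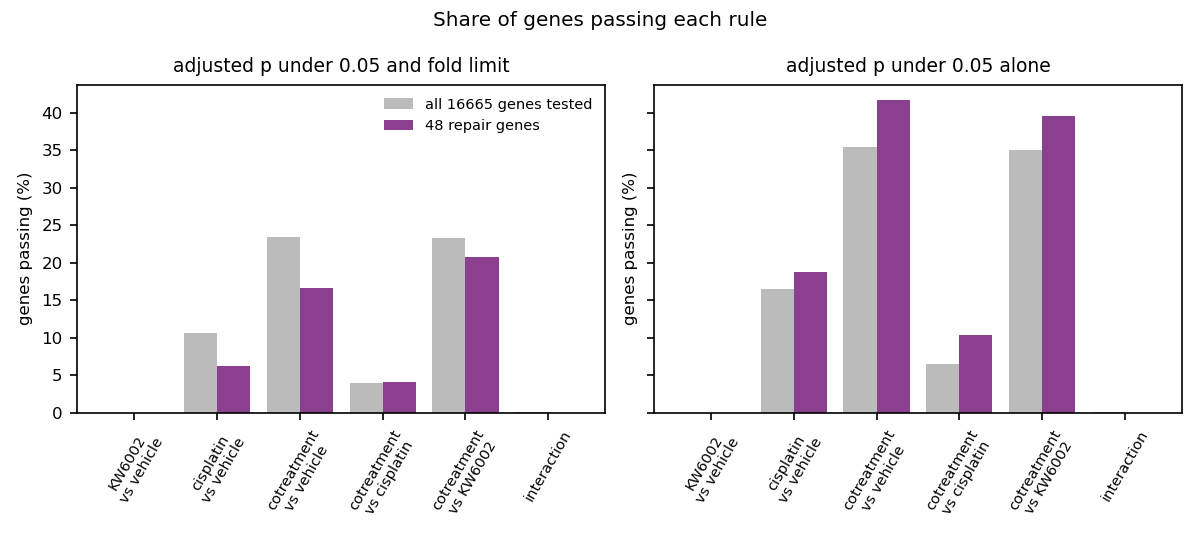
Share of genes passing in each comparison, in percent, for all 16665 genes tested (gray) and the 48 repair genes (purple), with the fold limit (left) and on the adjusted p alone (right). After cotreatment the repair genes reach 16.7% against 23.5% with the limit and 41.7% against 35.4% without it.

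Homologous recombination held the largest fall on the list. Rad51c, a mediator of homologous recombination (ENSMUSG00000007646, chr11:87376645-87404954), stood at 5.77, 4.99, 6.07, 6.41 and 6.1 CPM in vehicle tumors. It stood at 5.16, 4.13, 4.94, 4.19 and 6.26 CPM after KW6002, at 3.59, 3.48, 3.24, 3.89 and 3.56 CPM after cisplatin, and at 3.01, 3, 3.17, 3.14 and 4.31 CPM after cotreatment. Every tumor of both cisplatin arms was below every vehicle tumor. Its log2 fold change was -0.73 ± 0.126 (SE) after cisplatin (edgeR adjusted p = 0.00059) and -0.82 ± 0.126 after cotreatment (adjusted p = 4.76e-05). The arms with and without KW6002 overlapped, with a log2 difference of -0.10 (edgeR adjusted p = 0.684).

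Exo1, the exonuclease that resects broken ends and also serves mismatch repair (ENSMUSG00000039748, chr1:175880581-175913489), differed between the cisplatin arms. Its levels were 35.3, 32, 35.1, 33.7 and 35.1 CPM in vehicle tumors and 36.1, 30.5, 34.2, 33.3 and 31.2 CPM after KW6002. They were 29.4, 31.1, 29.3, 30.4 and 30.5 CPM after cisplatin and 23.5, 24.3, 20.5, 26 and 24.9 CPM after cotreatment. Cisplatin tumors lay below all vehicle tumors, and cotreated tumors lay below all tumors of the other groups. The log2 fold change was -0.18 ± 0.062 after cisplatin, within the fold limit (edgeR adjusted p = 0.0455), and -0.52 ± 0.0623 after cotreatment (adjusted p = 2.79e-06). Cotreatment was lower than cisplatin by -0.34 ± 0.0622 (edgeR adjusted p = 0.0041).

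Rad54l, a motor protein that acts during strand exchange (ENSMUSG00000028702, chr4:116094264-116123690), stood at 25.2, 21.7, 23.8, 27.1 and 27.1 CPM in vehicle tumors and 25.8, 18.8, 24.8, 24 and 22.2 CPM after KW6002. It stood at 22.2, 26.4, 24.1, 23.9 and 21.5 CPM after cisplatin and at 16.7, 18.8, 16.2, 21.2 and 20.8 CPM after cotreatment. Cotreated tumors were below every vehicle and every cisplatin tumor, while cisplatin and vehicle tumors overlapped. Its log2 fold change was -0.08 ± 0.0939 after cisplatin (edgeR adjusted p = 0.597) and -0.42 ± 0.0943 after cotreatment (adjusted p = 0.0017), and cotreatment against cisplatin gave -0.34 ± 0.0942 (adjusted p = 0.0368). The call between the cisplatin arms was lost in 7 of the 20 fits without 1 tumor. It was also lost with no low count filter, with only the compared groups fitted and with a replicate block, at -0.32, -0.34 and -0.34 (edgeR adjusted p = 0.0721, 0.0854 and 0.0524). Against vehicle the call was lost within the later library codes, at -0.23 (edgeR adjusted p = 0.157). Of its exon bases, 15.4% are shared with Lrrc41 on the opposite strand.

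Brca1 had log2 fold changes of 0.01 ± 0.0655 after cisplatin and -0.06 ± 0.0655 after cotreatment, and Palb2, which links BRCA1 to BRCA2, had 0.05 ± 0.0788 and 0.05 ± 0.0787. Brca2, a mediator of strand exchange, had 0.02 ± 0.0654 and 0.16 ± 0.0653 (edgeR adjusted p = 0.874 and 0.068). None of these 3 genes was called against vehicle, and against KW6002 alone cotreatment gave 0.21 ± 0.0653 for Brca2, which passed the adjusted p and not the fold limit (edgeR adjusted p = 0.0163). Brip1, a helicase bound to BRCA1, passed the adjusted p alone after cotreatment at -0.27 ± 0.0897 (edgeR adjusted p = 0.0215). In all, 3 of the 11 recombination genes were called lower after cotreatment (10.4% of all genes were) and 1 after cisplatin (4.57% of all genes), and 0 were called higher in either.

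Of the 5 checkpoint genes on the list, 1 was called lower after cisplatin (4.57% of all genes) and 2 after cotreatment (10.4%), and 0 were called higher. After cotreatment their log2 fold changes ran from -0.54 for Chek1 to -0.10 for Trp53bp1, and after cisplatin from -0.42 for Atm to -0.00 ± 0.0961 for Chek2, which is 0 within its error. Atm, the kinase activated by broken ends (ENSMUSG00000034218, chr9:53439149-53536740), stood at 54.1, 58.5, 61.1, 70.4 and 63.5 CPM in vehicle tumors and 57, 65.4, 64.9, 56.4 and 69.5 CPM after KW6002. It stood at 52.8, 50, 44.4, 39 and 44.3 CPM after cisplatin and 48.2, 43, 37.7, 45.9 and 41.2 CPM after cotreatment. Tumors of either cisplatin arm lay below all vehicle tumors. On the log2 scale the change was -0.42 ± 0.0871 after cisplatin (edgeR adjusted p = 0.00274) and -0.51 ± 0.0872 after cotreatment (adjusted p = 0.000137). In the earlier library codes the 1 vehicle tumor stood at 54.1 CPM, beside means of 51.4 CPM after cisplatin and 42.9 CPM after cotreatment. In the later codes the means were 63.4, 42.6 and 43.5 CPM. Both calls held within the later codes and with the code run as a term.

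Chek1, the kinase that ATR activates at stalled forks (ENSMUSG00000032113, chr9:36708482-36727065), stood at 35.1, 33.2, 33.6, 40.7 and 38 CPM in vehicle tumors and 38, 33, 35.7, 36.4 and 35.5 CPM after KW6002. It stood at 30, 34.5, 30.1, 27.3 and 27.3 CPM after cisplatin and 23.4, 24.1, 24.1, 24.7 and 27.7 CPM after cotreatment. Vehicle and cisplatin tumors overlapped through cisplatin replicate 2, whereas cotreated tumors were below all vehicle tumors. The log2 fold change was -0.28 ± 0.0719 after cisplatin, within the fold limit (edgeR adjusted p = 0.0121), and -0.54 ± 0.0722 after cotreatment (adjusted p = 9.99e-06). Chek1 was called lower after cisplatin without cisplatin replicate 2 and within the later library codes. Cotreatment against cisplatin gave -0.27 ± 0.0722 (edgeR adjusted p = 0.0312), which passed the adjusted p but not the fold limit. Atr, the kinase above Chek1, passed the adjusted p alone after cotreatment at -0.30 ± 0.0772 (edgeR adjusted p = 0.00442), and it was called without vehicle replicate 1 or cotreated replicate 1. Chek2, the kinase below ATM, and Trp53bp1, a scaffold at broken ends, had -0.21 ± 0.0963 and -0.10 ± 0.0555 after cotreatment and passed neither rule.

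Of the 11 Fanconi anemia genes, 1 was called lower after cotreatment (10.4% of all genes were lower) and 0 after cisplatin (10.6% of all genes were called). Fanci, which forms the clamp that closes on crosslinked DNA with FANCD2 (ENSMUSG00000039187, chr7:79391929-79450264), stood at 24.7, 23.7, 26.8, 26 and 29.9 CPM in vehicle tumors and 22.9, 22.7, 27.3, 23.5 and 22.3 CPM after KW6002. It stood at 25.2, 26, 25.2, 26 and 26.7 CPM after cisplatin and 18.9, 21.3, 18.8, 23.4 and 21.9 CPM after cotreatment. Cotreated tumors lay below all vehicle and all cisplatin tumors. Its log2 fold change was -0.02 ± 0.075 after cisplatin and -0.33 ± 0.0753 after cotreatment (edgeR adjusted p = 0.00173), and cotreatment against cisplatin gave -0.31 ± 0.0752 (adjusted p = 0.0197), just inside the fold limit. The value lies at the fold limit: the call against vehicle was lost in 8 of the 20 fits that left out 1 tumor, and with DESeq2, RLE scaling, both other filters on low counts and the run of library codes as a term, at -0.32 to -0.29, always with an adjusted p under 0.05 in these 5 settings. Within the later codes it was -0.21 (edgeR adjusted p = 0.21). Fanci shares 16% of its exon bases with Polg on the opposite strand. Its partner Fancd2 gave -0.19 ± 0.0769 after cotreatment (edgeR adjusted p = 0.0555).

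Of the other Fanconi anemia genes, only Fanca, Fancl and Ube2t passed the adjusted p after cotreatment, Fanca as higher and the others as lower. Fanca, of the core complex, stood at 178, 162, 177, 151 and 170 CPM in vehicle tumors, at 171, 171, 174, 184 and 152 CPM after KW6002, at 183, 194, 172, 198 and 203 CPM after cisplatin and at 205, 229, 216, 182 and 202 CPM after cotreatment. Cotreated tumors were all above vehicle tumors, with a log2 fold change of 0.30 ± 0.0664 (edgeR adjusted p = 0.0013), within the fold limit. Fanca shares 10.5% of its exon bases with Zfp276 on the opposite strand. Fancl, the ubiquitin ligase subunit, stood at 21, 19.3, 19.7, 21.8 and 22.5 CPM in vehicle tumors, at 19.3, 19, 20.3, 19.9 and 18.1 CPM after KW6002, at 17.1, 20, 18.2, 19.4 and 18.7 CPM after cisplatin and at 16.4, 16.6, 16.5, 17 and 18.8 CPM after cotreatment. Cotreated tumors were all below vehicle tumors, at -0.29 ± 0.0634 (edgeR adjusted p = 0.00128). Fancl shares 13.7% of its exon bases with Vrk2 on the opposite strand. Ube2t, the conjugating enzyme that works with FANCL, gave -0.28 ± 0.0935 (edgeR adjusted p = 0.0247) and was called without cotreated replicate 4.

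**Figure D4:**
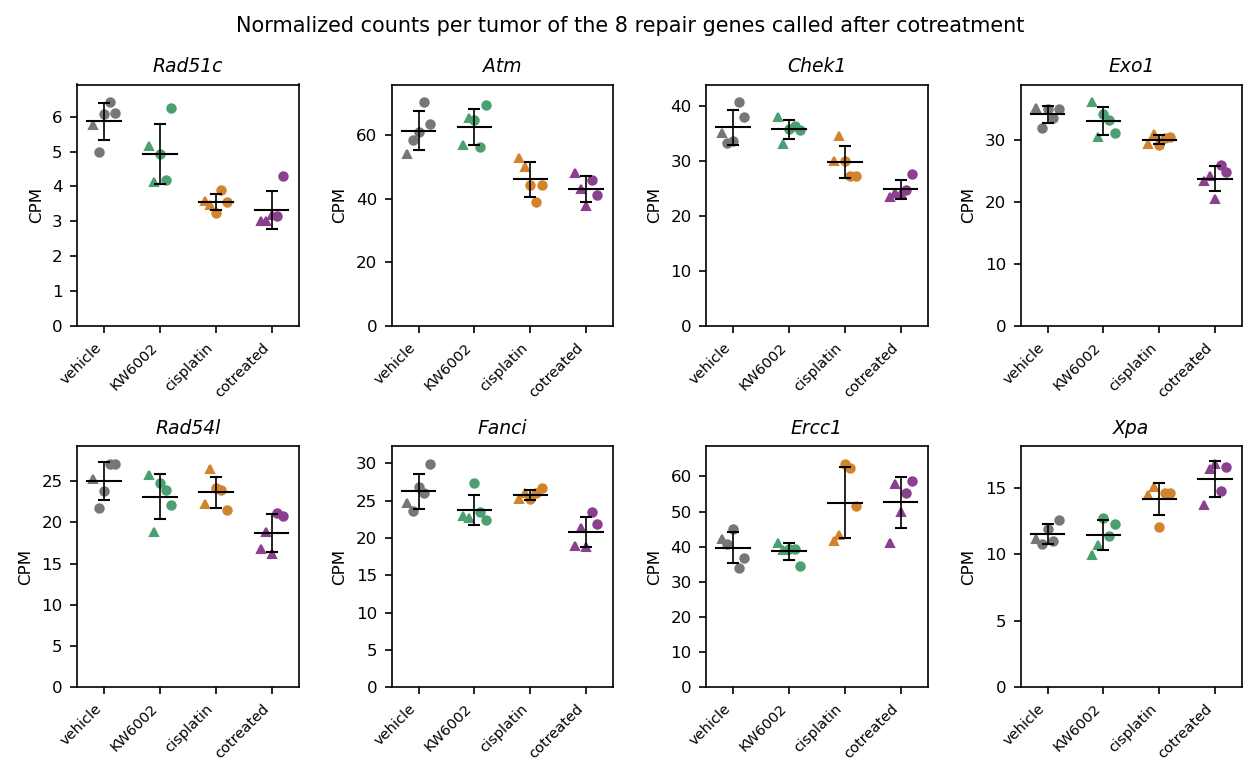
CPM in each tumor of the 8 repair genes called after cotreatment, by group; horizontal lines are means, bars are SD (n = 5), triangles are tumors of the earlier run of library codes and circles those of the later run. Rad51c and Atm are lower in both cisplatin arms, and Exo1 and Rad54l are lower in cotreated than in cisplatin tumors.

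Of the 9 nucleotide excision repair genes, 2 were called higher after cotreatment (13.1% of all genes were) and 1 after cisplatin (6.01%). Ercc1, the partner of the XPF nuclease that makes the 5′ incision (ENSMUSG00000003549, chr7:19344778-19356524), stood at 42.3, 40.7, 45, 33.8 and 36.9 CPM in vehicle tumors and 41.2, 39, 39.4, 39.4 and 34.5 CPM after KW6002. It stood at 41.7, 43.4, 63.6, 62.4 and 51.7 CPM after cisplatin and 41.1, 57.9, 49.9, 55.3 and 58.8 CPM after cotreatment. Cisplatin replicates 1 and 2 and cotreated replicate 1 lay within the vehicle range, and the other 7 tumors lay above it. On the log2 scale the change was 0.40 ± 0.117 after cisplatin (edgeR adjusted p = 0.0217) and 0.40 ± 0.117 after cotreatment (adjusted p = 0.01). Both low cisplatin tumors belong to the earlier run of library codes, and within the later run cisplatin gave 0.62 (edgeR adjusted p = 0.00205). The cisplatin call was lost without vehicle replicate 4 or 5 or cisplatin replicate 3 or 4, with log2 fold changes between 0.34 and 0.49 over all 20 such fits. It was also lost when only the vehicle and cisplatin tumors were fitted, at 0.41 (edgeR adjusted p = 0.0602).

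Xpa, which checks the lesion and positions the nucleases (ENSMUSG00000028329, chr4:46155347-46196311), stood at 11.2, 10.8, 11.9, 11 and 12.6 CPM in vehicle tumors and 9.95, 10.7, 12.7, 11.4 and 12.3 CPM after KW6002. It stood at 14.5, 15, 12, 14.6 and 14.6 CPM after cisplatin and 13.7, 16.4, 16.8, 14.7 and 16.5 CPM after cotreatment. Cotreated tumors were above all vehicle tumors, and cisplatin tumors were too except replicate 3. The log2 fold change was 0.30 ± 0.0848 after cisplatin, within the fold limit (edgeR adjusted p = 0.0191), and 0.44 ± 0.0848 after cotreatment (adjusted p = 0.000392). After cisplatin Xpa was called without vehicle replicate 3 or 5 or cisplatin replicate 3.

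Ercc4, which encodes XPF itself, stood at 24.9, 21.6, 24.1, 21 and 24.8 CPM in vehicle tumors, at 21.7, 24.6, 22.9, 24.4 and 19.1 CPM after KW6002, at 27, 28.1, 27.2, 26.8 and 26.2 CPM after cisplatin and at 26.1, 31, 30.4, 26.4 and 28.4 CPM after cotreatment. Every tumor of both cisplatin arms was above every vehicle tumor, yet the differences stayed within the fold limit at 0.22 ± 0.0735 and 0.29 ± 0.0734 (edgeR adjusted p = 0.0479 and 0.00424). After cotreatment Ercc4 was called without vehicle replicate 1 or 5 or cotreated replicate 4. The TFIIH helicase gene Ercc3 had the smallest error on the list, with 0.01 ± 0.0435 after cisplatin and -0.01 ± 0.0434 after cotreatment, and Ddb1 gave -0.08 ± 0.068 and -0.05 ± 0.068. Rad23b gave -0.32 ± 0.0964 after cotreatment (edgeR adjusted p = 0.0132), a value that falls just short of the fold limit before rounding, and it was called lower in 6 of the 20 fits without 1 tumor, in the later library codes and with the code run as a term. The p53 target list, 12 genes, was higher in 11 of 12 members in each arm (6.01% of all genes after cisplatin and 13.1% after cotreatment), with sums of 1294 to 1824 CPM in vehicle tumors, 2082 to 2849 CPM after cisplatin and 2113 to 2800 CPM after cotreatment; its part in the values of Ercc1, Ercc4 and Xpa was not tested.

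None of the 6 translesion synthesis genes was called against vehicle, beside 10.6% of all genes after cisplatin and 23.5% after cotreatment. Rev1, the scaffold of translesion polymerases, stood at 104, 114, 106, 115 and 109 CPM in vehicle tumors, at 103, 123, 114, 115 and 118 CPM after KW6002, at 136, 145, 129, 114 and 119 CPM after cisplatin and at 137, 129, 144, 137 and 124 CPM after cotreatment. Cotreated tumors were all above vehicle tumors, at 0.29 ± 0.0638 (edgeR adjusted p = 0.00131), and cisplatin gave 0.23 ± 0.0638 (adjusted p = 0.0172). Rev1 shares 26.6% of its exon bases with Eif5b on the opposite strand, and the strand option of the counting is not given in the sources used here. Rad18, the ligase that marks PCNA for bypass, stood at 56.8, 55.1, 56.4, 57.6 and 55.8 CPM in vehicle tumors, at 55.1, 48.6, 52.4, 49.3 and 56.9 CPM after KW6002, at 55.3, 70.4, 60.4, 58.7 and 62.3 CPM after cisplatin and at 64.9, 79, 71.7, 65.2 and 62 CPM after cotreatment. Cotreated tumors were all above vehicle and KW6002 tumors, at 0.28 ± 0.0681 against vehicle (edgeR adjusted p = 0.00269). Their means were 71.9 CPM in the earlier library codes and 63.6 CPM in the later ones. The 1 earlier vehicle tumor stood at 56.8 CPM, and the later vehicle tumors had a mean of 56.2 CPM. Without cotreated replicate 5, Rev1 and Rad18 were both called higher against vehicle. Fanca and Slx4 were called higher in that fit, without vehicle replicate 1, without cotreated replicate 4 and with at least 10 counts required in every tumor, and Fanca also without vehicle replicate 3.

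Polh, the polymerase that copies past platinated guanines, was lower. It stood at 62, 57, 61.8, 68.1 and 61.9 CPM in vehicle tumors, at 57.3, 59.8, 61, 57.4 and 62.2 CPM after KW6002, at 52.2, 55.9, 53.5, 50 and 52.1 CPM after cisplatin and at 55.9, 48.2, 50.2, 58.3 and 55.5 CPM after cotreatment. Cisplatin tumors lay below all vehicle tumors, while cotreated tumors overlapped them. The log2 fold changes of -0.24 ± 0.0565 and -0.21 ± 0.0565 were within the fold limit (edgeR adjusted p = 0.00695 and 0.00557). Rev3l, the catalytic subunit of polymerase zeta, stood at 109, 135, 140, 137 and 148 CPM in vehicle tumors, at 111, 122, 122, 117 and 150 CPM after KW6002, at 156, 146, 126, 106 and 113 CPM after cisplatin and at 159, 165, 174, 140 and 140 CPM after cotreatment. In both cisplatin arms the tumors of the earlier library codes were the highest, with means of 151 and 166 CPM beside 115 and 140 CPM for the later codes. The order was the opposite in the other groups, at 109 CPM in the 1 earlier vehicle tumor beside 140 CPM and at 117 beside 130 CPM after KW6002. The differences from vehicle, -0.04 and 0.22, did not pass (edgeR adjusted p = 0.813 and 0.108).

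**Figure D5:**
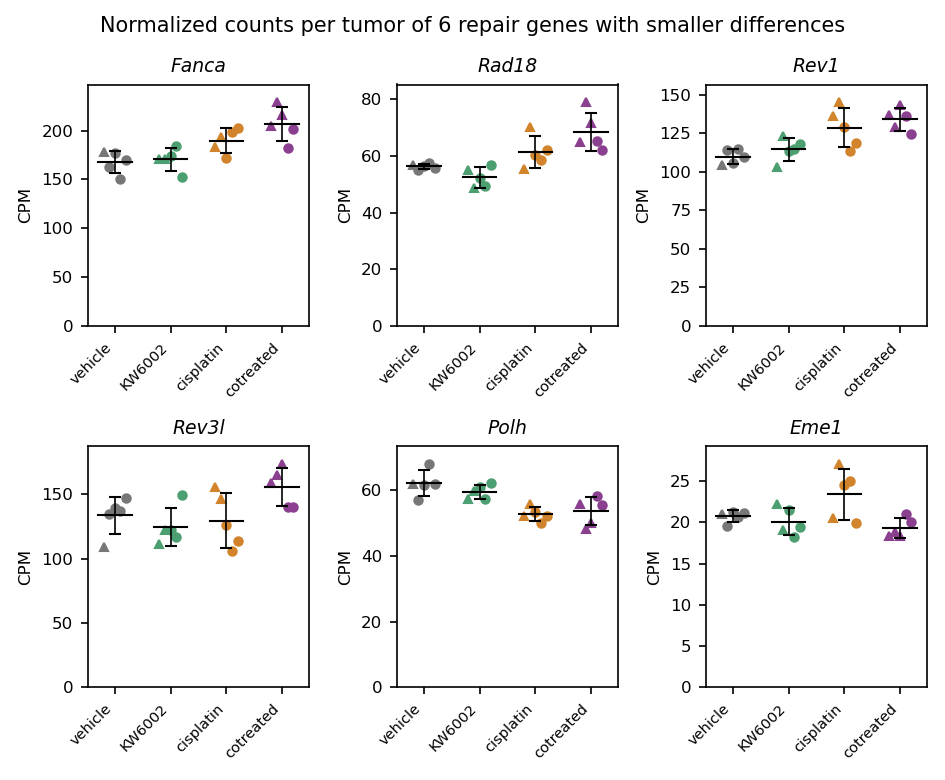
CPM in each tumor of 6 repair genes with smaller differences, by group; horizontal lines are means, bars are SD (n = 5), triangles are tumors of the earlier run of library codes and circles those of the later run. Rev1 and Rad18 are higher in cotreated than in vehicle tumors, Polh is lower after cisplatin, and Rev3l is higher in the triangles of both cisplatin arms.

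The 4 crosslink nuclease and 2 mismatch repair genes gave 0 calls against vehicle, beside 10.6% of all genes after cisplatin and 23.5% after cotreatment. Slx4, the scaffold that gathers nucleases, stood at 60.7, 56.5, 56.3, 55.2 and 53.5 CPM in vehicle tumors, at 55.4, 63.6, 57, 52.9 and 58.6 CPM after KW6002, at 55.6, 70, 68.2, 59.1 and 57.6 CPM after cisplatin and at 75.6, 75.4, 72.3, 61.3 and 64 CPM after cotreatment. Cotreated tumors were all above vehicle tumors, at 0.31 ± 0.0733 (edgeR adjusted p = 0.00268), within the fold limit. Fan1, a nuclease recruited by the Fanconi clamp, stood at 9.19, 9.25, 9.01, 8.09 and 9.49 CPM in vehicle tumors, at 8.21, 8.54, 8.74, 9.22 and 9.04 CPM after KW6002, at 9.54, 10.3, 10.2, 9.14 and 9.93 CPM after cisplatin and at 10.3, 11.2, 10.7, 11 and 9.17 CPM after cotreatment. Vehicle and cotreated tumors overlapped through cotreated replicate 5, and the log2 fold change was 0.22 ± 0.0734 (edgeR adjusted p = 0.023). Msh6 stood at 159, 174, 180, 187 and 170 CPM in vehicle tumors, at 176, 172, 178, 178 and 170 CPM after KW6002, at 175, 178, 165, 164 and 163 CPM after cisplatin and at 172, 180, 197, 147 and 174 CPM after cotreatment. All 4 groups overlapped, with log2 fold changes of -0.04 ± 0.0614 and 0.00 ± 0.0614 in the cisplatin arms. Pms2, the nuclease subunit of mismatch repair, stood at 33.7, 33.7, 33.2, 34.8 and 35.3 CPM in vehicle tumors, at 35.8, 32.4, 34.3, 33.8 and 32.3 CPM after KW6002, at 35.8, 35.1, 31.4, 33.3 and 32.5 CPM after cisplatin and at 30.3, 30.8, 31.1, 33.4 and 32.6 CPM after cotreatment. The cotreated tumors overlapped the vehicle tumors through replicate 4, with a log2 fold change of -0.11 ± 0.0504 (edgeR adjusted p = 0.0981).

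The third question was whether adding KW6002 to cisplatin changed repair genes. Cotreatment against cisplatin called 2 of 48 genes, both lower (4.17%; 4% of all genes were called, 2.29% higher and 1.71% lower), namely Rad54l and Exo1. Groups did not overlap for 3 of 48 genes, these and Fanci (4.83% of all genes). On the adjusted p alone Fanci, Chek1 and Eme1 were also lower. Eme1, the partner of the MUS81 nuclease, stood at 21.1, 19.5, 21.3, 20.6 and 21.2 CPM in vehicle tumors, at 22.2, 19.1, 21.5, 18.2 and 19.5 CPM after KW6002, at 20.5, 27.1, 24.5, 25 and 19.9 CPM after cisplatin and at 18.4, 18.9, 18.3, 21.1 and 20 CPM after cotreatment. The cisplatin arms overlapped, and the log2 difference was -0.28 ± 0.0808 (edgeR adjusted p = 0.0448). Between the cisplatin arms, calls were gained by Eme1 without cisplatin replicate 5, by Fanci without cotreated replicate 4 or 5 and by Rev3l without cisplatin replicate 1. The 11 recombination genes had a median log2 difference of -0.06 beside -0.01 over all genes, and all but 2 of them passed neither rule. The 95% intervals of all 48 genes lay inside a fold of 1.5, as did those of 66.7% of all genes, which include genes with fewer reads.

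Exo1 was called in 19 of the 20 fits that left out 1 tumor. Without cotreated replicate 3 its log2 difference of -0.29 passed the adjusted p and missed the fold limit. Within the earlier library codes the log2 difference was -0.40 for Exo1 and -0.49 for Rad54l (edgeR adjusted p = 0.0894 and 0.119), and within the later codes it was -0.24 and -0.14 (adjusted p = 0.301 and 0.584). S phase markers moved in the same comparison: 7 of 16 were lower in cotreated than in cisplatin tumors (1.71% of all genes). Against vehicle, 11 of 16 were lower after cotreatment (10.4% of all genes) and 0 after cisplatin (4.57%). Their summed levels were 1436 to 1722 CPM in vehicle tumors, 1352 to 1570 CPM after cisplatin and 1060 to 1303 CPM after cotreatment, and their part in the lower values of Exo1, Rad54l, Fanci and Chek1 was not tested. Of 12 G2 and mitosis markers, 0 were called after cisplatin (10.6% of all genes) and 4 were lower after cotreatment (10.4% of all genes). Between the cisplatin arms 0 were called (4% of all genes). Their median log2 fold changes in these comparisons were 0.03, -0.10 and -0.19, beside 0.0004, -0.02 and -0.01 over all genes. The sums of these 12 markers were 1749 to 2073 CPM in vehicle tumors and 1524 to 1957 CPM after KW6002. They were 1698 to 2047 CPM after cisplatin and 1443 to 1816 CPM after cotreatment. Mki67, a member of that list, stood at 350 to 455 CPM in vehicle tumors, 289 to 359 CPM after cisplatin and 230 to 318 CPM after cotreatment.

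The interaction compares what KW6002 did in cisplatin-treated mice with what it did in the others. It was called for 0 of 48 genes by edgeR (0.066% of all genes, 0.036% higher and 0.03% lower), with 4 genes at an unadjusted p under 0.05 (12.2% of all genes), and for 0 of 48 by DESeq2 (1.57% of all genes). Rev3l had the largest value at 0.37 ± 0.148, followed by Exo1 at -0.29 ± 0.0878 (edgeR adjusted p = 0.31 and 0.171). A difference between the cisplatin effects with and without KW6002 was thus not established for any listed gene. The 95% intervals of 47 of 48 genes lay inside a fold of 1.5 (56.7% of all genes, not matched on read counts), with Rev3l as the exception.

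Cotreatment against KW6002 gives the cisplatin effect in the presence of KW6002. It called 10 of 48 genes (20.8%; 23.3% of all genes), 5 in each direction. Ercc1, Ercc4, Xpa, Rev3l and Rad18 were higher, at 0.44, 0.33, 0.45, 0.32 and 0.39 on the log2 scale, and Rad51c, Exo1, Rad23b, Atm and Chek1 were lower, at -0.57, -0.47, -0.36, -0.54 and -0.53. The edgeR adjusted p ran from 8.92e-06 for Exo1 to 0.0204 for Rev3l. With the run of library codes as a term, Ercc4 and Rev3l fell to 0.32 and 0.30, under the fold limit before rounding. Leaving out single tumors ended the call of Ercc4 4 times, that of Rev3l 5 times and that of Rad23b 2 times out of 20. Upper quartile scaling also ended the call of Rev3l. Rev3l gave 0.52 within the earlier codes and 0.13 within the later codes (edgeR adjusted p = 0.00105 and 0.456). Within the later codes 5 of 48 genes were called (10.4%; 9.6% of all genes), and Ercc4, Xpa, Rad18 and Rad51c also lost the call, at 0.32, 0.38, 0.28 and -0.45. Within the earlier codes 10 of 48 were called (20.8%; 19.4% of all genes), with Fanca and Slx4 gained and Ercc1 and Rad23b lost, at 0.32 and -0.26. Leaving out 1 tumor gained Rad54l in 3 fits, Slx4 in 2 and Fanca in 1 against KW6002. On the adjusted p alone 19 of 48 genes passed (39.6%; 35% of all genes), and groups did not overlap for 10 of 48 (24.9% of all genes). Cotreated tumors also entered the comparison with vehicle, so the 2 sets of calls share them.

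A further 69 genes of the same pathways, chosen by role, were counted in the same fit. Cisplatin called 6 of 69 (8.7%; 10.6% of all genes), with 1 higher and 5 lower (6.01% and 4.57% of all genes). Ercc5, whose product XPG makes the 3′ incision of nucleotide excision repair, was higher, from 77.7 ± 13.9 to 120 ± 23 CPM (log2 fold change 0.63 ± 0.14, edgeR adjusted p = 0.00483). Rmi2, a subunit of the BLM complex that dissolves joined molecules, fell from 2.69 ± 0.477 to 1.61 ± 0.453 CPM (-0.74 ± 0.182, edgeR adjusted p = 0.00826). Pms1, Rif1, an adaptor of 53BP1, and Primpol, a primase that restarts forks, were also lower, at -0.36, -0.41 and -0.39 on the log2 scale.

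Cotreatment called 19 of these 69 genes (27.5%; 23.5% of all genes), with 5 higher and 14 lower (13.1% and 10.4% of all genes). The recombination genes among them gave 5 of 16 lower and 0 higher. The translesion synthesis genes gave 3 of 7 called (42.9%), 1 higher and 2 lower. Of the 5 crosslink nuclease genes in this set, 1 was higher after cotreatment (13.1% of all genes were): Eme2, a partner of the MUS81 nuclease, named after its values were seen, at 0.47 ± 0.0779 (edgeR adjusted p = 9.83e-05). Eme2 stood at 24.2, 21.1, 22.5, 22.9 and 19.5 CPM after cisplatin alone and at 26.7, 28.5, 25.4, 27.7 and 23 CPM after cotreatment. Ercc5 stood at 140 ± 11.9 CPM (0.85 ± 0.141 against vehicle, edgeR adjusted p = 0.000137). Among the 15 checkpoint genes of this set, 2 were lower and 1 was higher. The higher one was Wee1, a kinase that holds CDK1 inactive, named here after its values were seen. Wee1 stood at 44.2 ± 3 CPM in vehicle and 68.1 ± 10.5 CPM in cotreated tumors (0.63 ± 0.153, edgeR adjusted p = 0.00359). After cisplatin alone it stood at 38.2, 46.4, 46.8, 59.1 and 81.1 CPM, overlapping the cotreated tumors, and it was not called between the cisplatin arms. Cotreatment against cisplatin called 2 of 69 (2.9%; 4% of all genes): Gtf2h2, a TFIIH subunit, was higher at 0.33 ± 0.0656 (edgeR adjusted p = 0.00609), and Dna2, a resection nuclease and helicase, was lower at -0.40 ± 0.0768 (adjusted p = 0.00501). KW6002 against vehicle and the interaction called 0 of 69 by edgeR (0% and 0.066% of all genes), with 1 and 6 genes at an unadjusted p under 0.05 (2.03% and 12.2% of all genes), and DESeq2 called 2 of 69 in the interaction (1.57% of all genes).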

How the data were processed

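Gene expression was measured by poly(A) RNA sequencing in 20 LLC1 tumors, 5 in each of 4 groups, which the titles name; vehicle replicate 1 is titled in another form than replicates 2 to 5. The authors deposited raw counts of uniquely aligned reads per Ensembl gene, made with STAR on mm10 and HTSeq 0.6.1p1 in union mode, per the labels and the study's methods; the strand option is not given in the sources used here. Totals ranged from 28.4 to 41 M reads per tumor, and 99.92% of counts fell in tested genes. Reads carried no molecular identifiers.

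Counts were filtered by group with filterByExpr, scaled by TMM and fitted with edgeR 4.0.16 (quasi-likelihood, robust, 4 group means) in R 4.3.3. Tests were two-sided, with Benjamini-Hochberg adjustment over 16665 genes. CPM uses the TMM-scaled totals, and the SE comes from the F statistic; intervals use the t quantile at the test's degrees of freedom. The scripts were tested on simulated data. Positions come from the GENCODE annotation on GRCm38.

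Values per tumor are given for the genes with the 2 smallest p in each pathway against vehicle after cisplatin and after cotreatment, and for those called or among the 3 smallest p in cotreatment against cisplatin, KW6002 against vehicle and the interaction. Other pathway genes were named when called after cisplatin or between the cisplatin arms, except 1 that is not reported here. The listed genes, marker lists and other pathway genes were chosen with earlier results of these data known. Alternatives covered DESeq2 1.42.0, scaling, filters, the fold limit, the groups fitted, the library code run, a replicate block and leaving out each tumor. Nothing says whether tumors of a group were handled on separate days, so p-values cover the spread between these tumors.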

Additional observations from a re-analysis of the deposited data

Results flagged for a closer look

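Over the 20 repair genes given per tumor, 80 groups of 5 were examined for a tumor far from the others, and 4 (5%) held one, where chance gives about 1 in 20. Rad51c stood at 4.31 CPM in cotreated replicate 5, with the nearest cotreated tumor at 3.17 CPM, and it remained below every vehicle tumor. Fancl stood at 18.8 CPM in the same tumor, with the nearest at 17 CPM. Fanci stood at 27.3 CPM in KW6002 replicate 3, with the nearest at 23.5 CPM. Xpa stood at 12 CPM in cisplatin replicate 3, with the nearest at 14.5 CPM.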

How the results depend on the processing

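Counts of listed genes called are given in the order cisplatin against vehicle, cotreatment against vehicle, cotreatment against cisplatin and cotreatment against KW6002, which were 3, 8, 2 and 10, beside 10.6%, 23.5%, 4% and 23.3% of all genes. Without a fold limit they were 9, 20, 5 and 19 (16.5%, 35.4%, 6.52% and 35% of all genes). Cotreatment against cisplatin gave 1 with no low count filter and 1 when only the compared groups were fitted (1.38% and 1.35% of all genes), each without Rad54l. Requiring at least 10 counts in every tumor gave 3, 9, 2 and 10 (10.8%, 23.5%, 4.76% and 23.4% of all genes), where cotreatment against vehicle gained Fanca and Slx4 and lost Fanci. Fitting only the compared groups also gave 2 after cisplatin, without Ercc1 (8.04% of all genes). Within the later library codes they were 6, 7, 0 and 5 (15.9%, 12.8%, 0.00581% and 9.6% of all genes). The 6 after cisplatin gained Fancm, Rad23b and Chek1, and the 7 after cotreatment lost Rad54l and Fanci and gained Rad23b. Within the earlier codes, chosen as a setting after seeing the data, the counts were 0 between the cisplatin arms and 10 against KW6002 (1.62% and 19.4% of all genes). The causes were not tested, although fewer tumors enter the code runs. With the code run as a term they were 3, 8, 2 and 8 (11.1%, 22.9%, 3.42% and 23.4% of all genes), where cotreatment against vehicle lost Fanci and gained Rad23b and cotreatment against KW6002 lost Ercc4 and Rev3l. DESeq2 gave 3, 7, 2 and 10 (11.5%, 23.7%, 5.06% and 23.6% of all genes), and no called gene changed direction in any setting. Over all genes the interaction called 11 by edgeR and 261 by DESeq2, with 0 listed genes in each. Leaving out 1 tumor gave 2 to 4, 7 to 13, 0 to 3 and 8 to 13, while 8.2% to 12.2%, 19.8% to 24.2%, 1.72% to 6.03% and 19.6% to 24.2% of all genes were called. The listed share was above that of all genes in 0, 3, 14 and 2 of these 20 fits. Between the cisplatin arms most of these gaps were smaller than 1 listed gene, which is 2.08% of the list. The count was 2 without vehicle replicate 4 or cisplatin replicate 4, 13 after cotreatment without vehicle replicate 1, and 0 between the cisplatin arms without cotreated replicate 3. KW6002 against vehicle and the interaction stayed at 0 to 0 throughout. Tumors with the same number did not deviate together (correlations of -0.39 to 0.39, median -0.03), and 9 of 60 comparisons were best with their own number; the replicate block gave 1 between the cisplatin arms (3.5% of all genes) and lost Rad54l. At these totals the median SE of a listed gene was 0.078 on the log2 scale.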
